A study of Mus musculus with 8 samples.

Results

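The RNAs encoded by mitochondrial DNA were followed in iBMDM cells, an immortalized line of mouse bone marrow-derived macrophages of wild-type (WT) genotype, under disulfiram (DSF), lipopolysaccharide (LPS) or both. The genes were taken as every row of the deposited count table whose Ensembl ID, without its version, belongs to a symbol starting with mt-, which gave 37 of 55414 IDs. They comprised 13 mRNAs, 2 rRNAs and 22 tRNAs. Of these 37, 20 had enough counts to be tested, namely all 13 mRNAs, both rRNAs and 5 of the tRNAs.

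The 8 libraries formed 4 groups of 2. DSF+LPS cells received 5 µM DSF for 0.5 h and then 1 µg/ml LPS for 4 h, DSF cells received DSF and then water, LPS cells received DMSO and then LPS, and control cells received DMSO and then water. The design text gives the purpose as a test of whether DSF blocks the response to LPS through TLR4, the LPS receptor. The line is immortalized, and nothing in the labels says that the 2 samples of a group were grown separately. The p-values therefore rest on how far the 2 samples of a group lie apart. The fit pools this spread over the 4 groups and draws on other genes to estimate it. Part or all of the spread can be technical.

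DSF is a drug long used against alcohol dependence, and LPS is a component of the outer membrane of gram-negative bacteria. Totals ran between 17822041 and 21694922 counts per library. The labels were checked with the LPS-induced cytokine gene Tnf, which had 202 and 259 CPM in DSF+LPS, 46.3 and 54.6 in DSF, 833 and 849.9 in LPS and 37.0 and 38.1 in control libraries. Hmox1, a stress-induced heme oxygenase gene, was between 6089.6 and 7719.8 CPM in the 4 libraries with DSF and between 181 and 213 CPM in the 4 without. All 10 macrophage markers were detected, and their sum was 2446 and 2563 CPM in DSF+LPS, 2269 and 2382 in DSF, 3227 and 3127 in LPS and 2674 and 2730.4 in control libraries. This sum and those of the other lists are CPM of library size alone, without the TMM scaling of other CPM values. The lists for neutrophils, dendritic cells, lymphocytes, fibroblasts and epithelial or endothelial cells summed to at most 13.9 CPM each, with S100a9, Cd3e, Cd3g and Nkg7 at 0 in every library. Of these, the dendritic cell sums were 5.42 to 6.41 CPM in the 4 libraries with DSF and 2.98 to 4.44 CPM in the 4 without, and the lymphocyte sums 1.12 to 2.71 and 0.189 to 0.521 CPM. The 10 most abundant genes took 7.23 to 8.39% of counts with DSF and 4.85 to 5.14% without. Genes with a count numbered 23416 to 25081 in libraries with DSF and 19779 to 20324 in those without. The dendritic cell and lymphocyte sums, the share of the 10 most abundant genes and the number of genes with a count did not overlap between libraries with and without DSF. The macrophage sums did not overlap on this scale, but did with TMM scaling. The part of all these differences in the DSF results below was not tested.

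Mitochondrial DNA is a small circle present in many copies per cell. It is transcribed from promoters on both strands into long precursor RNAs, and the tRNAs that lie between most genes are cut out to release the mRNAs and rRNAs. The mRNAs encode core subunits of respiratory complexes I, III and IV and of the ATP synthase, while every other protein of these complexes, and the proteins of mitochondrial gene expression, come from nuclear genes. In activated macrophages, LPS is known to shift energy supply from respiration towards glycolysis. The heavy-strand transcript carries 12 of the mRNAs, both rRNAs and 14 tRNAs. The light-strand transcript carries the mRNA of mt-Nd6, a complex I subunit, and 8 tRNAs.

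Mitochondrial genes overlap, so some reads belong to either of 2 genes. The ends of the 3 pairs of mRNAs that overlap by more than 1 base are shown because they bear on which of the counts below are shared. mt-Atp6 and mt-Co3 overlap by 1 base and are not shown. The shared bases are in capitals, and each sequence is printed in the direction of its own mRNA from the GENCODE transcripts of mouse build GRCm38.

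mt-Atp8 end: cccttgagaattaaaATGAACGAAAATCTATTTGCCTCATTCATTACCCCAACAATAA
mt-Atp6 start: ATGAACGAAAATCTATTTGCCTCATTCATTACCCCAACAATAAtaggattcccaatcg
mt-Nd4l end: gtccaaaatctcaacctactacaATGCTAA
mt-Nd4 start: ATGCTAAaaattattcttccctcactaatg
mt-Nd5 end: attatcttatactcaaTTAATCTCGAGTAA
mt-Nd6 end: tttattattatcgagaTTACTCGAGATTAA

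The first pair shares 43 bases, the second shares 7, and both pairs lie on 1 RNA. The last pair shares 14 bases from opposite strands, so the 2 capital runs are reverse complements. The sources used here do not state whether reads were counted by strand. Light-strand RNA that runs on across mt-Nd5, or heavy-strand RNA across mt-Nd6, therefore cannot be told apart from the mRNA annotated there.

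Parts of mitochondrial DNA also have copies in the nuclear genome. Aligning the 37 transcripts to all annotated nuclear transcripts found 17 nuclear genes with at least 90% identity over at least 100 bases, of which 7 pseudogenes on chromosome 1 matched at over 99%. These were Gm28661 (mt-Co2), Gm10925 (mt-Atp6), Gm28437 (mt-Co3), Gm28438 (mt-Nd3) and Gm10222 (mt-Nd4l), which span nearly the whole gene, Gm28439 (bases 1 to 876 of mt-Nd4) and Gm29216 (bases 1063 to 1545 of mt-Co1). In their aligned bases 5 were identical to the mitochondrial gene, and 2 carried 1 substitution each, T3C in Gm28438 and A1066T in Gm29216, with the mitochondrial base first and positions counted from the first base of the mRNA. The windows around both substitutions are printed with the differing base in capitals. Within the aligned bases, only reads across it could separate the gene from its copy.

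mt-Nd3 from base 1: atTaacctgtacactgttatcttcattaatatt
Gm28438: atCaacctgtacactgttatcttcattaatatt
mt-Co1 from base 1063: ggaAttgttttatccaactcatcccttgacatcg
Gm29216: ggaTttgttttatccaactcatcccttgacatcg

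Summed over the 8 libraries, the 5 near whole-gene copies held between 97.5% and 122% as many counts as their mitochondrial gene. The partial copies held 23.6% for Gm28439 and 13.4% for Gm29216, while none of the 10 less similar copies exceeded 1.28%. The deposited table does not say whether such reads were shared between both loci or counted at each. Levels of these 7 mitochondrial genes are therefore uncertain, and their fold changes, their levels per kilobase and the total mitochondrial share were repeated with the copies' counts added. Ratios between genes and the length-scaled share of mt-Co1 were not repeated in this way.

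**Figure D1:**
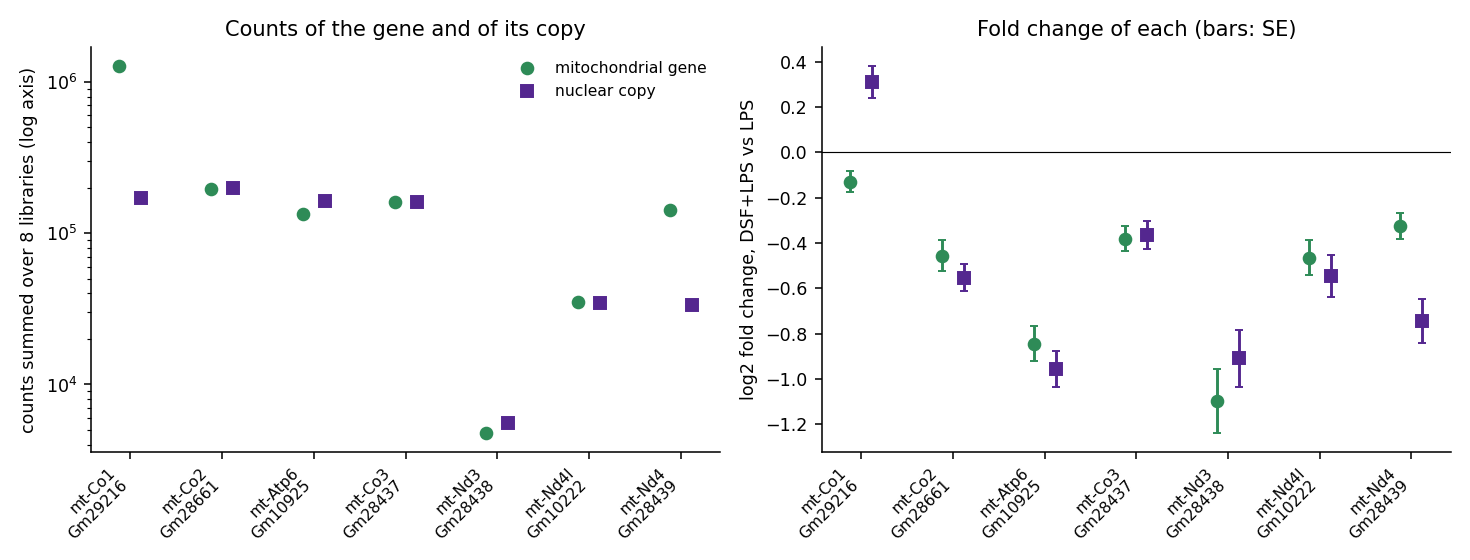
Left, counts summed over the 8 libraries (log axis) of 7 mitochondrial genes (circles) and of their nuclear copies (squares). Right, log2 fold change of DSF+LPS over LPS libraries for each with its SE. The copies of mt-Co2, mt-Atp6, mt-Co3, mt-Nd3 and mt-Nd4l sit near their gene in both panels, while Gm29216 lies above 0 and mt-Co1 below it.

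The share of all counts that fell to mitochondrially encoded genes was 1.35 and 1.33% in DSF+LPS, 1.93 and 1.86 in DSF, 1.66 and 1.81 in LPS and 1.96 and 1.91 in control libraries. The DSF+LPS libraries lay lowest and the LPS libraries next, each without overlap with any other group, while DSF and control overlapped. With TMM sizes as the denominator, LPS overlapped control, at 1.72 and 1.84% beside 1.81 and 1.77%. Bulk counts cannot tell fewer transcripts per cell from fewer cells of a kind, and a share falls when other genes gain counts. With the copies added, the share was 1.72 and 1.69% in DSF+LPS, 2.42 and 2.33 in DSF, 2.14 and 2.31 in LPS and 2.53 and 2.44 in control libraries, with the same lowest group and LPS again next. With 2 libraries against 2, an exact permutation test cannot go below a two-sided p of 0.333, so shares and ratios are given without a test.

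**Figure D2:**
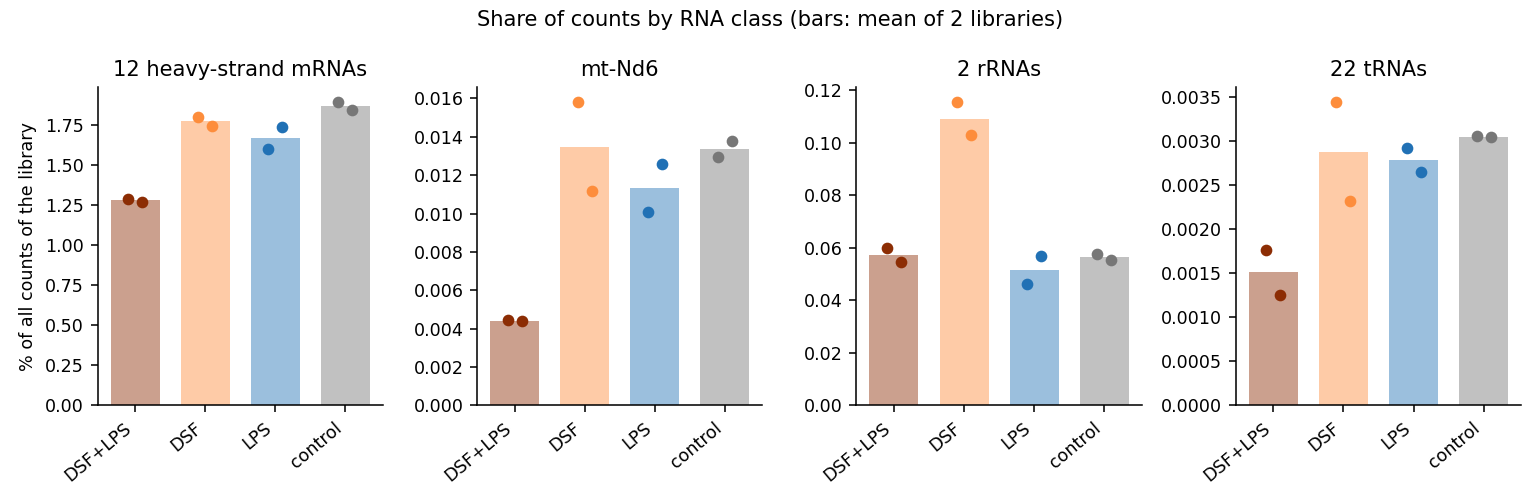
Percentage of each library's counts (vertical axes) in the 12 heavy-strand mRNAs, mt-Nd6, the 2 rRNAs and the 22 tRNAs. Points are libraries and bars are means of 2. DSF+LPS libraries are lowest for both mRNA classes and for tRNAs, and DSF libraries are highest for rRNAs.

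The mRNA levels differed widely between genes. Per kilobase of gene and with copies added, mt-Co1, the catalytic subunit of complex IV, was the most abundant in all 4 groups, at 5348 ± 48.2 CPM per kb in DSF+LPS, 6443 ± 8.75 in DSF, 5628 ± 172 in LPS and 5587 ± 168 in control cells (SD, n = 2 each). In control cells it was followed by mt-Co2 at 3934 ± 109, mt-Atp6 at 3223 ± 183 and mt-Co3 at 2779.9 ± 129.8 CPM per kb. The next in control cells were mt-Cytb at 1531 ± 25.1 and mt-Nd4l at 1509.6 ± 89.3 CPM per kb, which did not differ beyond their spread. Then came the complex I genes mt-Nd1, mt-Nd4, mt-Nd5 and mt-Nd2, between 1385 ± 28.1 and 548 ± 8.82 CPM per kb. The lowest values were mt-Nd6 at 238 ± 10.6, mt-Nd3 at 207 ± 0.532 and mt-Atp8 at 67.2 ± 10.4 CPM per kb. mt-Atp8 and mt-Atp6 lie on 1 RNA, as do mt-Nd4l and mt-Nd4, so values within a pair are not levels of separate mRNAs. Of the genes ranked here, those with copies are overstated if shared reads were counted at both loci. The order rests in part on the added copies. Without them, mt-Cytb at 1531 ± 24.3 CPM per kb had a higher mean than mt-Atp6 at 1456 ± 94.1 and mt-Co3 at 1392 ± 29.9. mt-Nd4l was then at 756 ± 63.9 CPM per kb. Libraries were made with an mRNA-seq kit, so the levels of mRNAs, rRNAs and tRNAs alike are those of the part the kit captured.

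None of these RNAs was called changed by LPS alone. Between LPS and control cells, 0 of the 20 genes passed an adjusted p of 0.05 in edgeR's quasi-likelihood test in either direction, and 0 had an unadjusted p under 0.05, against 15.2% of all tested genes that rose and 13.8% that fell. DESeq2 also called 0 of them. The 13 mRNAs had log2 fold changes between -0.19 and 0.08, with a median of -0.02, and the 2 rRNAs both stood at 0.02 to 0.03. The call depends on scaling. With library size alone, mt-Co1, mt-Atp6, mt-Co3, mt-Nd4 and mt-Cytb fell, with log2 fold changes of -0.15, -0.23, -0.18, -0.18 and -0.16, while that scaling moved the median of all tested genes by -0.14.

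Both rRNAs were higher in cells treated with DSF alone than in control cells. mt-Rnr1, the RNA of the small mitochondrial ribosomal subunit, had 289.6 and 240.1 CPM in DSF+LPS, 466 and 442 in DSF, 135 and 169 in LPS and 151 and 149 in control libraries. Both DSF libraries stood above both DSF+LPS libraries, which in turn stood above all 4 libraries without DSF. Its log2 fold change of DSF over control was 1.60 ± 0.10 (SE; adjusted p = 8.42e-09). mt-Rnr2, the RNA of the large subunit, had 345 and 347 CPM in DSF+LPS, 667 and 588 in DSF, 344 and 413 in LPS and 379 and 363 in control libraries. For this RNA only the DSF libraries stood apart, and its log2 fold change of DSF over control was 0.76 ± 0.08 (SE; adjusted p = 2.68e-06).

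The ratio of mt-Rnr1 to mt-Rnr2 counts was 0.839 and 0.692 in DSF+LPS, 0.698 and 0.752 in DSF, 0.393 and 0.409 in LPS and 0.397 and 0.409 in control libraries. All 4 libraries with DSF lay above all 4 without it. DSF+LPS overlapped DSF, and LPS overlapped control. As a percentage of the mitochondrial mRNA counts, the 2 rRNAs together amounted to 4.63 and 4.30% in DSF+LPS, 6.35 and 5.87 in DSF, 2.86 and 3.26 in LPS and 3.02 and 2.99 in control libraries. The DSF libraries were highest, the DSF+LPS libraries next, and the LPS and control libraries overlapped.

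The mRNAs moved little and in both directions with DSF alone. Of the 20 genes tested, 4 rose, where 31% of all tested genes rose, and 5 fell, where 27.1% of all fell, so neither share is above the background. The 4 that rose were both rRNAs, mt-Tc and mt-Co1, and the 5 that fell were mt-Nd1, mt-Co2, mt-Atp6, mt-Co3 and mt-Cytb. mt-Co1 had 7179 and 6960.4 CPM in DSF+LPS, 8866 and 8739.6 in DSF, 7579 and 7888 in LPS and 7873 and 7546 in control libraries. Its log2 fold change of DSF over control was 0.19 ± 0.05 (SE; adjusted p = 0.00330), which did not pass with library size alone (0.09, adjusted p = 0.104). Those of the genes that fell were -0.22 (adjusted p = 0.0134) for the complex I gene mt-Nd1, -0.23 (adjusted p = 0.00842) for mt-Co2 and -0.22 (adjusted p = 0.00348) for mt-Co3, which encode complex IV subunits, -0.29 (adjusted p = 0.00497) for the ATP synthase gene mt-Atp6 and -0.19 (adjusted p = 0.0149) for mt-Cytb, the mitochondrially encoded subunit of complex III. Values were 0.15 (adjusted p = 0.0951) for mt-Nd2, 0.09 (adjusted p = 0.192) for mt-Nd4, 0.09 (adjusted p = 0.285) for mt-Nd5 and 0.11 (adjusted p = 0.465) for mt-Nd6, all complex I genes that did not pass. mt-Nd3, mt-Nd4l and mt-Atp8 did not pass either, at 0.01, -0.00378 and -0.28.

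Single libraries decided several of these small changes. Without control replicate 1, mt-Nd1 (-0.21, adjusted p = 0.0689), mt-Atp6 (-0.24, adjusted p = 0.0576) and mt-Cytb (-0.19, adjusted p = 0.0742) no longer passed, which left 2 genes that fell. Without control replicate 2, mt-Co1 did not pass (0.15, adjusted p = 0.0642), and 2 genes rose. Without DSF replicate 2, mt-Nd1 did not pass (-0.21, adjusted p = 0.0585) and mt-Nd6 rose (0.30, adjusted p = 0.0391). Without DSF replicate 1, mt-Tp fell (-0.56, adjusted p = 0.0386).

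Nearly every mitochondrial mRNA was lower in cells that received both DSF and LPS. Between DSF+LPS and LPS cells, 12 of 13 mRNAs fell and 0 rose, as 15 of the 20 genes tested fell, where 31.6% of all tested genes fell, and 1 rose, where 33.7% of all rose. Between DSF+LPS and DSF cells, 12 of 13 mRNAs and both rRNAs fell, as 16 of the 20 genes fell, where 6.53% of all tested genes fell, and 0 rose, where 5.53% of all rose. The median log2 fold change of the 13 mRNAs was -0.46 over LPS and -0.44 over DSF, beside medians over all tested genes of 0.04 and -0.00339. Against control cells, 14 genes fell and 1 rose, where 30.9% and 34.3% of all tested genes did. All 3 comparisons share the DSF+LPS libraries.

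**Figure D3:**
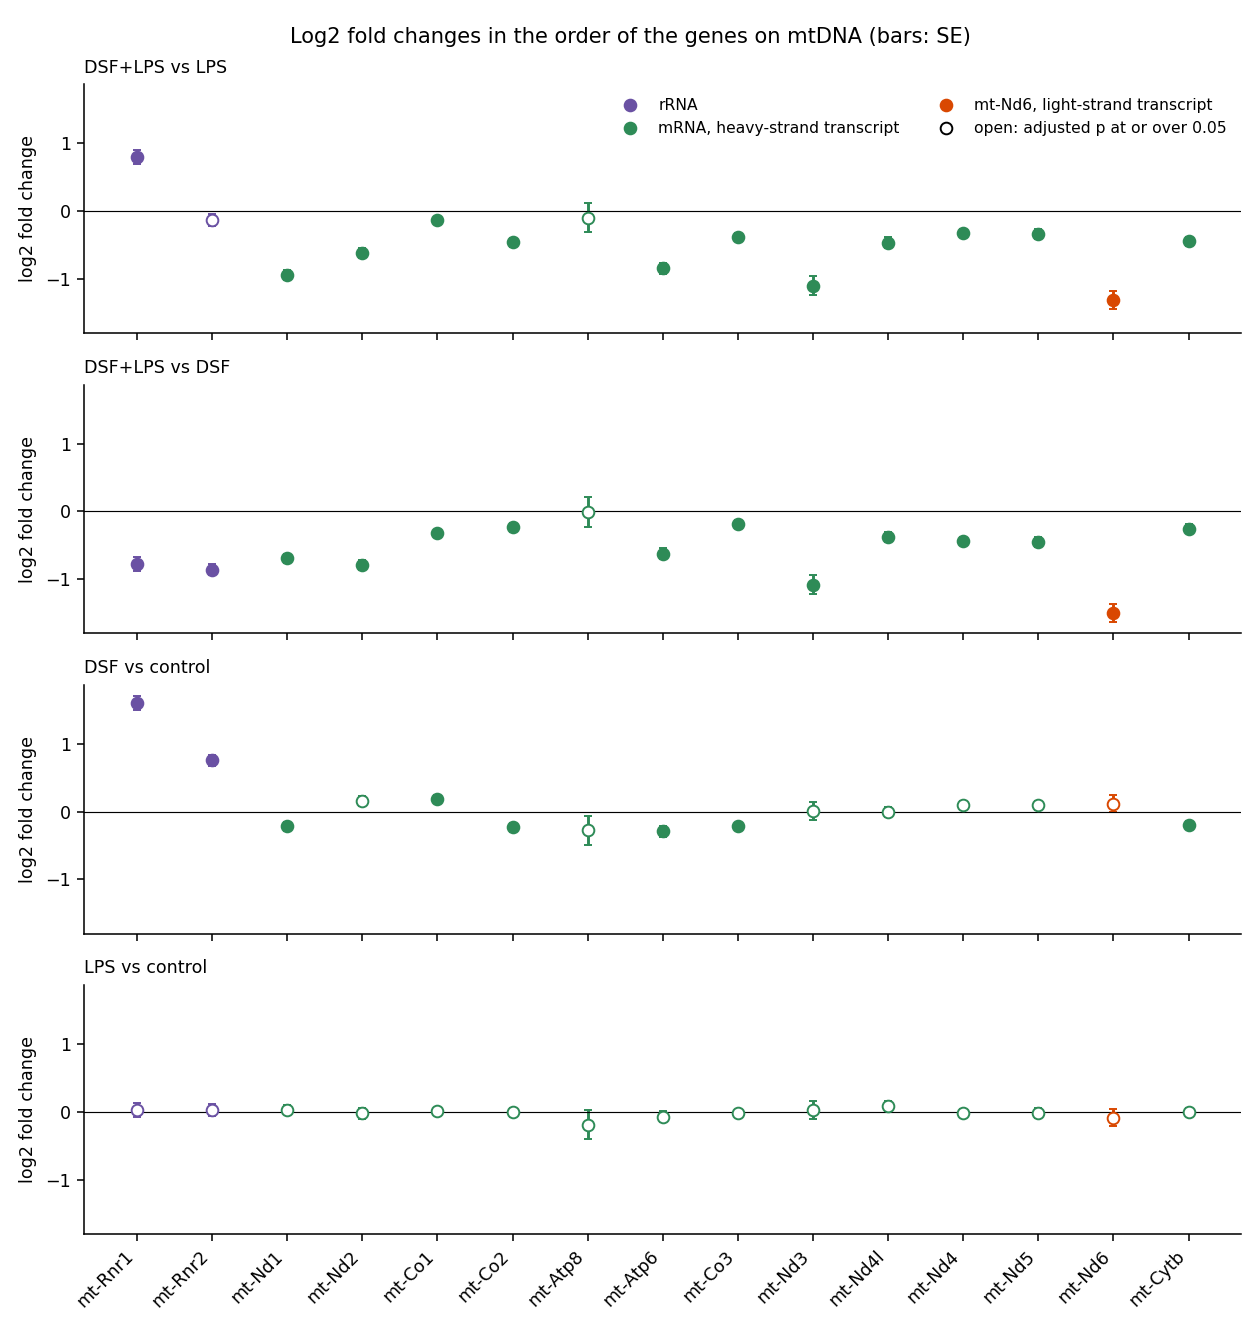
Log2 fold change (vertical axis, with SE) of the 2 rRNAs and 13 mRNAs in their order on mitochondrial DNA, for DSF+LPS over LPS, DSF+LPS over DSF, DSF over control and LPS over control. Open circles did not pass an adjusted p of 0.05; mt-Nd6 is lowest of the mRNAs in both upper panels, and all points of the lowest panel are open.

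The only light-strand mRNA fell most among the mRNAs in both comparisons. mt-Nd6 had 47.0 and 47.2 CPM in DSF+LPS, 155 and 112 in DSF, 104 and 128 in LPS and 119.5 and 127 in control libraries. The DSF+LPS libraries lay below all 6 others, which overlapped. Its log2 fold change was -1.31 ± 0.13 (SE; adjusted p = 7.16e-07) for DSF+LPS over LPS and -1.503 ± 0.13 (SE; adjusted p = 5.70e-06) over DSF. Per 1000 counts of heavy-strand mRNA, mt-Nd6 had 3.44 and 3.47 counts in DSF+LPS, 8.77 and 6.40 in DSF, 6.29 and 7.25 in LPS and 6.86 and 7.49 in control libraries. To test it against its own class, the fit was repeated with each library's size set to its counts of the 13 mitochondrial mRNAs. On that scale mt-Nd6 still fell, with log2 fold changes of -0.97 ± 0.12 (SE; adjusted p = 1.78e-07) over LPS, where 18.5% of all tested genes fell, and -1.13 ± 0.12 (SE; adjusted p = 2.27e-07) over DSF, where 0.675% did. Leaving mt-Co1 out of the pool gave -0.773 and -1.07, and both passed. Whether the mRNA-seq kit captured mt-Nd6 to the same extent as the heavy-strand mRNAs was not tested.

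Among the heavy-strand mRNAs, mt-Nd3, mt-Nd1, mt-Atp6 and mt-Nd2 fell most in both comparisons. mt-Nd3, a small complex I subunit, had 17.4 and 13.9 CPM in DSF+LPS, 32.9 and 33.5 in DSF, 28.8 and 38.3 in LPS and 31.4 and 34.3 in control libraries. Its DSF+LPS libraries did not overlap the others, and its log2 fold change was -1.10 ± 0.14 (SE; adjusted p = 9.46e-06) over LPS and -1.08 ± 0.14 (SE; adjusted p = 2.91e-04) over DSF. Against the mRNA pool it fell as well, with -0.76 ± 0.14 (SE; adjusted p = 3.50e-05) and -0.71 ± 0.14 (SE; adjusted p = 2.12e-04). mt-Nd1, the complex I subunit whose gene lies next to the rRNAs, had 743 and 668 CPM in DSF+LPS, 1168 and 1109.6 in DSF, 1279.6 and 1429 in LPS and 1344 and 1307 in control libraries. The 4 groups did not overlap except for LPS and control. The log2 fold change of mt-Nd1 was -0.94 ± 0.07 (SE; adjusted p = 2.33e-08) over LPS and -0.69 ± 0.07 (SE; adjusted p = 2.11e-05) over DSF.

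mt-Atp6, a membrane subunit of the ATP synthase that forms its proton path, had 565 and 484 CPM in DSF+LPS, 851 and 767 in DSF, 926 and 958 in LPS and 1037 and 946 in control libraries. Here too the DSF+LPS libraries were the lowest, with log2 fold changes of -0.84 ± 0.08 (SE; adjusted p = 2.99e-07) over LPS and -0.62 ± 0.08 (SE; adjusted p = 1.95e-04) over DSF. mt-Nd2, another membrane subunit of complex I, had 359 and 369 CPM in DSF+LPS, 665 and 599 in DSF, 518 and 599 in LPS and 562 and 575 in control libraries. The DSF+LPS libraries lay below the rest, and its log2 fold change was -0.62 ± 0.08 (SE; adjusted p = 5.08e-06) over LPS and -0.80 ± 0.08 (SE; adjusted p = 1.25e-05) over DSF.

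Over LPS cells, the middle of the range held mt-Nd4l at -0.46 (adjusted p = 9.31e-05), mt-Co2 at -0.46 (adjusted p = 3.02e-05), mt-Cytb at -0.44 (adjusted p = 2.01e-05), mt-Co3 at -0.38 (adjusted p = 2.98e-05), mt-Nd5 at -0.34 (adjusted p = 7.35e-04) and mt-Nd4 at -0.33 (adjusted p = 1.80e-04). Over DSF cells, the same genes had -0.38 (adjusted p = 0.00676), -0.23 (adjusted p = 0.0360), -0.26 (adjusted p = 0.0172), -0.18 (adjusted p = 0.0442), -0.45 (adjusted p = 0.00127) and -0.44 (adjusted p = 2.88e-04) in that order. Several of the changes over DSF cells were lost without 1 library. Without DSF replicate 1, mt-Nd4l (-0.29, adjusted p = 0.115), mt-Co2 (-0.28, adjusted p = 0.0861), mt-Co3 (-0.20, adjusted p = 0.154) and mt-Cytb (-0.28, adjusted p = 0.0568) did not pass, and 10 of the 20 genes fell in place of 16. Without any 1 of the 4 libraries compared, mt-Co2 and mt-Co3 lost their calls, at log2 fold changes of between -0.28 and -0.17 and between -0.20 and -0.15 and adjusted p-values up to 0.195 and 0.173. mt-Cytb also did not pass without DSF+LPS replicate 1 (-0.20, adjusted p = 0.0626) or DSF replicate 2 (-0.21, adjusted p = 0.0701).

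Over LPS cells, mt-Co1 showed the smallest change that passed, -0.13 ± 0.05 (SE; adjusted p = 0.0278), and over DSF cells it had -0.32 ± 0.05 (SE; adjusted p = 9.74e-04). The change over LPS did not pass without DSF+LPS replicate 2 (-0.09, adjusted p = 0.213), without LPS replicate 2 (-0.11, adjusted p = 0.104), with the copy's counts added (-0.07, adjusted p = 0.181), in a fit of those 4 libraries alone (-0.09, adjusted p = 0.231), with DESeq2's size factors in edgeR (-0.10, adjusted p = 0.0983) or in DESeq2 (-0.10, adjusted p = 0.171). Against the mRNA pool it rose over LPS, by 0.21 ± 0.08 (SE; adjusted p = 0.0201), where 46.9% of all tested genes rose; without DSF+LPS replicate 1 this was 0.19, adjusted p = 0.132 and without replicate 2 0.22, adjusted p = 0.0719. Over DSF, mt-Co1 did not pass against the pool, at 0.06 ± 0.08 (SE; adjusted p = 0.595). Its length-scaled share of the mRNA pool was 38.6% ± 0.657 in DSF+LPS, 36.8% ± 0.121 in DSF, 31.9% ± 0.642 in LPS and 31.7% ± 0.553 in control cells (SD, n = 2 each). The ratio of mt-Nd1 to mt-Co1 counts was 0.103 and 0.0960 in DSF+LPS, 0.132 and 0.127 in DSF, 0.169 and 0.181 in LPS and 0.171 and 0.173 in control libraries. It was lowest in both DSF+LPS libraries, next in both DSF libraries, and higher in all 4 without DSF. mt-Atp8 encodes a short ATP synthase subunit and shares its mRNA with mt-Atp6, so its counts are not the level of a separate mRNA. It had 8.53 and 14.02 CPM in DSF+LPS, 9.46 and 13.3 in DSF, 11.8 and 12.3 in LPS and 12.2 and 15.2 in control libraries. The groups overlapped, and its log2 fold changes of -0.10 (adjusted p = 0.703) over LPS and -0.01 (adjusted p = 0.983) over DSF did not pass, although without DSF+LPS replicate 2 the first was -0.48, adjusted p = 0.0462.

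**Figure D4:**
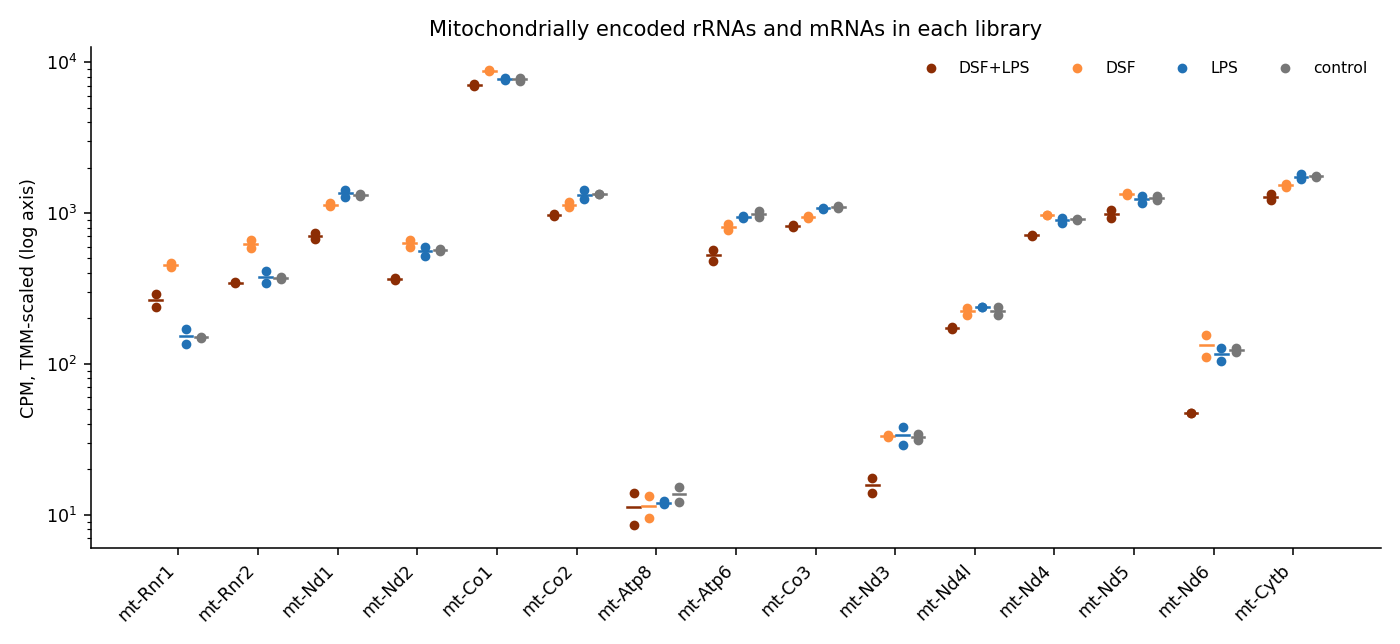
Level of each rRNA and mRNA in each library (vertical axis: TMM-scaled CPM, log axis), in the order of the genes on mitochondrial DNA. Points are libraries and bars their mean; DSF+LPS points are lowest for all mRNAs except mt-Atp8, and the rRNAs are highest in DSF.

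The changes were also set against the order of the genes on the heavy-strand transcript. Across the 12 heavy-strand mRNAs, Spearman's rho between gene order and log2 fold change was 0.21 for DSF+LPS over LPS and 0.13 over DSF, and between gene length and log2 fold change 0.32 and -0.14. These are descriptions across genes that share libraries and 1 precursor, and genes are not independent replicates.

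The rRNAs differed in call between DSF+LPS and LPS cells. mt-Rnr1 was higher in DSF+LPS than in LPS cells, with a log2 fold change of 0.80 ± 0.10 (SE; adjusted p = 7.30e-06), while mt-Rnr2 had -0.13 (adjusted p = 0.194) and did not pass. Without LPS replicate 1, mt-Rnr2 fell (-0.27, adjusted p = 0.0200). Over DSF cells both fell, mt-Rnr1 with -0.78 ± 0.10 (SE; adjusted p = 2.43e-04) and mt-Rnr2 with -0.86 ± 0.08 (SE; adjusted p = 1.75e-05). Against the mRNA pool, mt-Rnr1 rose by 1.14 ± 0.10 (SE; adjusted p = 4.17e-10) over LPS and fell over DSF, with -0.41 ± 0.10 (SE; adjusted p = 0.00168). On that scale mt-Rnr2 also rose over LPS, by 0.21 ± 0.09 (SE; adjusted p = 0.0398) or, with mt-Co1 left out of the pool, 0.40 (adjusted p = 3.51e-04), and fell over DSF, with -0.49 ± 0.09 (SE; adjusted p = 1.19e-04). Its rise did not pass without DSF+LPS replicate 1 (0.22, adjusted p = 0.0734), DSF+LPS replicate 2 (0.20, adjusted p = 0.0954) or LPS replicate 1 (0.13, adjusted p = 0.242). The difference between the changes of the 2 rRNAs was not tested.

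**Figure D5:**
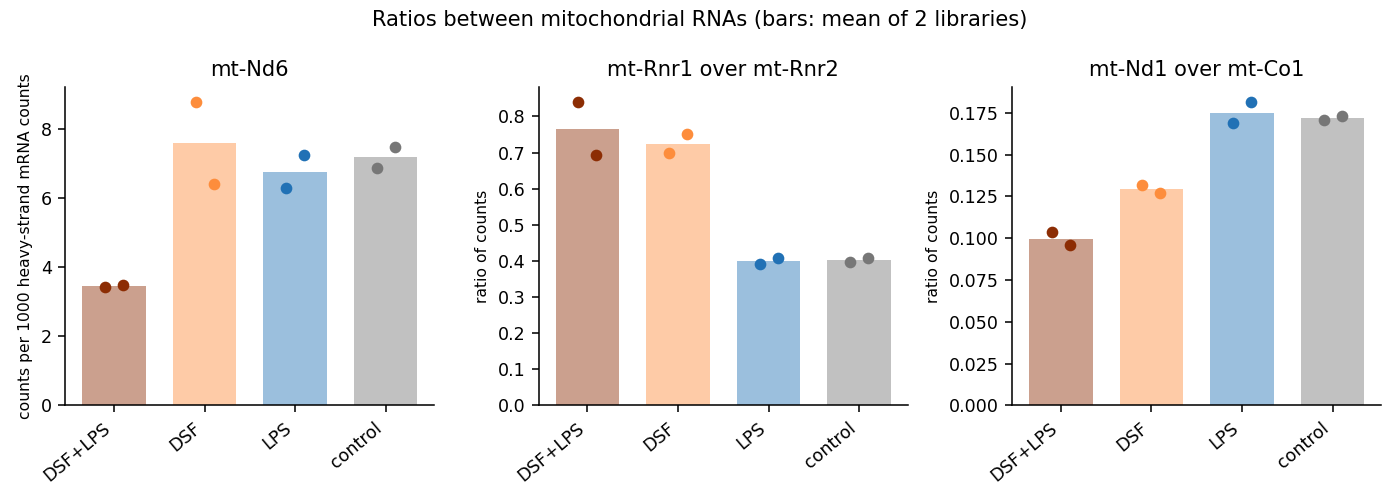
Left, mt-Nd6 counts per 1000 counts of the 12 heavy-strand mRNAs; middle, mt-Rnr1 over mt-Rnr2 counts; right, mt-Nd1 over mt-Co1 counts. Points are libraries and bars are means of 2. The mt-Nd6 ratio is low in DSF+LPS libraries alone, while the rRNA ratio is high in all 4 libraries with DSF.

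The response to LPS differed between cells with and without DSF. The interaction, the log2 change of DSF+LPS over DSF minus that of LPS over control, passed for 13 of the 20 genes, all negative, where 12.2% of all tested genes were called negative, and 0 were positive, where 7.58% of all were. It was -1.42 ± 0.18 (SE; adjusted p = 5.81e-05) for mt-Nd6, -1.11 ± 0.20 (SE; adjusted p = 9.42e-04) for mt-Nd3, -0.89 ± 0.12 (SE; adjusted p = 8.92e-05) for mt-Rnr2, -0.80 ± 0.14 (SE; adjusted p = 0.00104) for mt-Rnr1, -0.77 ± 0.11 (SE; adjusted p = 1.13e-04) for mt-Nd2 and -0.72 ± 0.10 (SE; adjusted p = 9.02e-05) for mt-Nd1. It was also called for mt-Atp6, mt-Nd4l, mt-Nd5, mt-Nd4, mt-Co1 and the tRNAs mt-Tl1 and mt-Tc. That of mt-Nd4l, -0.46 (adjusted p = 0.00727), did not pass without DSF replicate 1 (-0.35, adjusted p = 0.0600) or control replicate 1 (-0.38, adjusted p = 0.0582). The values of mt-Co2, mt-Cytb, mt-Co3 and mt-Atp8 were -0.23 (adjusted p = 0.113), -0.25 (adjusted p = 0.0605), -0.16 (adjusted p = 0.182) and 0.18 (adjusted p = 0.752) in that order. mt-Co2 passed without LPS replicate 1 (-0.32, adjusted p = 0.0353) or with its copy's counts added (-0.28, adjusted p = 0.0220), and mt-Cytb without DSF+LPS replicate 2 (-0.28, adjusted p = 0.0282), with no filter on low counts (-0.23, adjusted p = 0.0360) or with the replicate number as a block (-0.25, adjusted p = 0.0373). Relative to the mRNA pool, the interaction of mt-Nd6 was -1.05 ± 0.17 (SE; adjusted p = 3.67e-05), where 4.94% of all tested genes were called negative.

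The 22 tRNAs together held 4190 counts in the 8 libraries, of which mt-Tp, the proline tRNA on the light strand, held 3296. Counts at tRNA genes can include uncut precursor or, as the strand setting is not given, RNA of the opposite strand. mt-Tp had 315 and 181 counts in DSF+LPS, 521 and 313 in DSF, 501 and 475 in LPS and 442 and 548 in control libraries. Scaled to depth, both DSF+LPS libraries were below the other 6. Its log2 fold change was -0.87 ± 0.20 (SE; adjusted p = 0.00126) for DSF+LPS over LPS and -0.62 (adjusted p = 0.0537) over DSF. The second, which did not pass, was -1.02, adjusted p = 7.12e-04 without DSF+LPS replicate 1 and -0.85, adjusted p = 0.0134 without DSF replicate 2. mt-Tl1, a leucine tRNA between mt-Rnr2 and mt-Nd1, had 1 and 0 counts in DSF+LPS, 50 and 9 in DSF, 23 and 11 in LPS and 32 and 12 in control libraries. It was at or near 0 in the DSF+LPS libraries alone. The ratio of its summed CPM in DSF+LPS to that in LPS cells was 0.0318 with a 95% exact interval of 0.000783 to 0.190, and to that in DSF cells 0.0184 with an interval of 0.000459 to 0.107, both covering counting error only. In the edgeR fit it fell over LPS (adjusted p = 0.00649) and over DSF (adjusted p = 0.0124), the second not without DSF replicate 1 (adjusted p = 0.195).

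mt-Tc, the cysteine tRNA, had 20 and 10 counts in DSF+LPS, 55 and 31 in DSF, 38 and 32 in LPS and 17 and 27 in control libraries. It fell over LPS, with a log2 fold change of -1.11 ± 0.43 (SE; adjusted p = 0.0355), and over DSF, with -1.39 ± 0.43 (SE; adjusted p = 0.0481), and rose in DSF over control cells by 0.99 ± 0.40 (SE; adjusted p = 0.0492). Each of these calls was lost without single libraries. Over LPS it did not pass without DSF+LPS replicate 2 (-0.73, adjusted p = 0.210), LPS replicate 1 (-0.97, adjusted p = 0.141) or LPS replicate 2 (-1.26, adjusted p = 0.0567). Over DSF it did not pass without DSF+LPS replicate 2 (-0.995, adjusted p = 0.197) or DSF replicate 1 (-1.02, adjusted p = 0.396). In DSF over control it did not pass without DSF replicate 1 (0.60, adjusted p = 0.358), control replicate 1 (0.79, adjusted p = 0.218) or control replicate 2 (1.21, adjusted p = 0.0874). mt-Tn and mt-Th, for asparagine and histidine, had 290 and 99 counts in all and did not pass in any comparison with all 8 libraries, TMM scaling and the filter on low counts. Over DSF cells, mt-Tn passed without DSF+LPS replicate 2 (-1.27, adjusted p = 0.04995) and with library size alone (-1.05, adjusted p = 0.0450). There mt-Th passed with no filter on low counts (-1.90, adjusted p = 0.0350) and, against the mRNA pool, without DSF+LPS replicate 2 (-2.88, adjusted p = 0.0243). In DSF over control, mt-Tn passed in a fit of those 4 libraries alone (0.74, adjusted p = 0.0477) and against the mRNA pool less mt-Co1 (0.84, adjusted p = 0.0476). Of the 17 tRNAs not tested, 3 had 0 counts (mt-Td, mt-Tf and mt-Tg), and mt-Ty had the most, 47.

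The copies mostly moved as their mitochondrial gene did. For DSF+LPS over LPS the log2 fold changes were -0.55 (adjusted p = 1.57e-06) for Gm28661, -0.96 (adjusted p = 9.86e-08) for Gm10925, -0.37 (adjusted p = 9.59e-05) for Gm28437, -0.91 (adjusted p = 2.01e-05) for Gm28438 and -0.55 (adjusted p = 1.33e-04) for Gm10222. The partial copies had other values than their gene. Gm28439, the 5′ part of mt-Nd4, had -0.74 ± 0.10 (SE; adjusted p = 9.34e-06) beside -0.33 ± 0.06 for mt-Nd4. Gm29216, the 3′ part of mt-Co1, rose by 0.31 ± 0.07 (SE; adjusted p = 0.00147) while mt-Co1 had -0.13 ± 0.05, and in DSF over control by 0.32 ± 0.07 (SE; adjusted p = 0.00126) beside 0.19 ± 0.05. Its counts were 22571 and 22910 in DSF+LPS, 23843 and 23723 in DSF, 18920 and 20859 in LPS and 18115 and 20721 in control libraries. All 4 libraries with DSF held more than the 4 without, in counts not scaled to depth. The difference between gene and copy was not tested. With the copies' counts added, the 7 genes kept the sign of their fold change in both comparisons with DSF+LPS, mt-Co1 lost its call over LPS as given above, and mt-Co3 lost its call over DSF (-0.17, adjusted p = 0.0593).

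Nuclear genes that serve mitochondrial gene expression were followed in 7 lists, which held 144 symbols, 142 of them matched to different genes of the table and 137 tested. In DSF over control cells, 16 of the 137 rose and 70 fell, where 31% and 27.1% of all tested genes did. Between DSF+LPS and LPS cells, 25 rose and 73 fell, where 33.7% and 31.6% did. The median log2 fold change over the 137 was -0.26 and -0.25, beside 0.05 and 0.04 over all tested genes. In LPS over control cells 13 rose and 13 fell, where 15.2% and 13.8% of all did, with library size alone 7 rose and 35 fell, and without any 1 of the 4 libraries 6 to 8 rose and 7 to 8 fell. In DSF+LPS over DSF cells 14 rose and 6 fell, where 5.53% and 6.53% of all did, and with library size alone 6 rose and 24 fell. Without DSF replicate 1 the count was 1 that rose and 0 that fell, while 11 fell without DSF+LPS replicate 2 and 10 without DSF replicate 2. The counts for DSF+LPS over control cells were 23 that rose and 64 that fell, where 34.3% and 30.9% of all did. Without control replicate 2, 15 rose. In the interaction 9 were positive and 10 negative, where 7.58% and 12.2% of all were, so neither share is above the background. Leaving out each library in turn gave 2 to 18 positive ones, with 18 without DSF+LPS replicate 2, 5 without DSF replicate 1, 2 without LPS replicate 2 and 3 without either control library.

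Most of the listed genes for mitochondrial translation and RNA handling fell with DSF. Among all tested genes, 31% rose and 27.1% fell in DSF over control, and 33.7% rose and 31.6% fell in DSF+LPS over LPS. Of 21 mitochondrial translation factors, 0 rose and 16 fell in DSF over control, and 1 rose and 15 fell in DSF+LPS over LPS. Oxa1l, which inserts proteins into the inner membrane, had 55.5 ± 5.77 CPM in DSF and 97.2 ± 0.330 in control cells (SD, n = 2 each), a log2 fold change of -0.81 ± 0.08 (SE; adjusted p = 1.36e-06). Taco1, a translational activator of mt-Co1, had 13.1 ± 1.59 CPM in DSF and 23.9 ± 0.279 in control cells, a log2 fold change of -0.87 ± 0.13 (SE; adjusted p = 3.95e-05). Of 26 genes for mRNA stability, polyadenylation and decay, 1 rose and 17 fell in DSF over control, and 1 rose and 18 fell in DSF+LPS over LPS. Of 26 genes for tRNA and rRNA cleavage and modification, 2 rose and 15 fell, and 3 rose and 15 fell.

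In LPS over control, 2 of the 26 genes for mRNA stability, polyadenylation and decay rose, where 15.2% of all tested genes did. Pnpt1, the polynucleotide phosphorylase that degrades mitochondrial RNA, was 1 of them. It had 25.8 ± 5.91 CPM in DSF+LPS, 30.9 ± 4.06 in DSF, 111 ± 1.84 in LPS and 76.5 ± 6.26 in control cells (SD, n = 2 each). Both groups with DSF were low and LPS was highest. Its log2 fold change was -2.10 ± 0.13 (SE; adjusted p = 3.70e-09) for DSF+LPS over LPS, -1.31 ± 0.13 (SE; adjusted p = 7.14e-07) for DSF over control and 0.54 ± 0.12 (SE; adjusted p = 0.00313) for LPS over control, the last not passing without control replicate 2 (0.46, adjusted p = 0.0578). For DSF+LPS over DSF it was -0.25 ± 0.14 (SE; adjusted p = 0.254), which did not pass, although without DSF+LPS replicate 1 it passed, at -0.52, adjusted p = 0.00748. Lonp1, a mitochondrial matrix protease, went the other way, at 639.6 ± 10.95 CPM in DSF+LPS and 242 ± 13.8 in LPS cells, a log2 fold change of 1.40 ± 0.07 (SE; adjusted p = 1.66e-10). Ptcd3, a protein of the small mitochondrial ribosomal subunit, had 40.9 ± 1.45 CPM in DSF+LPS and 104 ± 1.02 in LPS cells, -1.35 ± 0.08 (SE; adjusted p = 2.26e-09). Lrpprc, which stabilizes mitochondrial mRNAs, had -0.25 ± 0.07 (SE; adjusted p = 0.00519) in DSF over control and -0.21 ± 0.07 (SE; adjusted p = 0.0152) in DSF+LPS over LPS; the second did not pass without DSF+LPS replicate 2 (-0.15, adjusted p = 0.0881) or LPS replicate 1 (-0.18, adjusted p = 0.1002). Its partner Slirp did not pass in either, at -0.003 ± 0.13 (SE; adjusted p = 0.986) and -0.17 ± 0.14 (SE; adjusted p = 0.271), although the second passed, at -0.36, adjusted p = 0.0497 without DSF+LPS replicate 1.

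Of 11 transcription and termination genes, 3 rose and 3 fell in DSF over control, where 31% and 27.1% of all tested genes did. In DSF+LPS over LPS 2 rose and 4 fell, where 33.7% and 31.6% did. Polrmt, the mitochondrial RNA polymerase, had 27.4 ± 4.70 CPM in DSF+LPS, 28.2 ± 2.81 in DSF, 45.6 ± 1.03 in LPS and 59.2 ± 2.77 in control cells (SD, n = 2 each). Both groups with DSF were low. The log2 fold change was -1.07 ± 0.11 (SE; adjusted p = 1.81e-06) for DSF over control and -0.74 ± 0.12 (SE; adjusted p = 6.11e-05) for DSF+LPS over LPS. For LPS over control it was -0.38 ± 0.11 (SE; adjusted p = 0.0188), a call lost without any 1 of the 4 libraries (adjusted p up to 0.144, log2 fold change between -0.43 and -0.33). For DSF+LPS over DSF it was -0.04 ± 0.12 (SE; adjusted p = 0.863) and did not pass. Tfam, which packages mitochondrial DNA and starts its transcription, did not pass in any of the 5 comparisons, with log2 fold changes between -0.22 and -0.07. Tfb2m, the other initiation factor, rose in DSF over control, by 0.63 ± 0.11 (SE; adjusted p = 2.31e-04), and in DSF+LPS over LPS, by 0.69 ± 0.11 (SE; adjusted p = 9.03e-05).

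Of 20 genes for replication, packaging and nucleotide supply, 3 rose and 8 fell in DSF over control, where 31% and 27.1% of all tested genes did. In DSF+LPS over LPS 5 rose and 9 fell, where 33.7% and 31.6% did. Cmpk2, a mitochondrial nucleotide kinase known as an interferon-induced gene, had 12.4 ± 1.05 CPM in DSF+LPS and 301 ± 16.4 in LPS cells, a log2 fold change of -4.61 ± 0.13 (SE; adjusted p = 8.07e-13). For LPS over control cells, at 21.3 ± 1.21 CPM in control cells, it was 3.82 ± 0.12 (SE; adjusted p = 3.43e-12). Slc25a33, a mitochondrial pyrimidine nucleotide carrier, had 81.2 ± 6.21 CPM in DSF and 21.3 ± 0.633 in control cells, 1.93 ± 0.11 (SE; adjusted p = 2.82e-09). Lig3, the DNA ligase of mitochondria, had 31.5 ± 3.08 CPM in DSF and 81.4 ± 4.72 in control cells, -1.37 ± 0.10 (SE; adjusted p = 4.08e-08).

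Of 8 biogenesis regulators, 3 rose and 4 fell in DSF over control, where 31% and 27.1% of all tested genes did. In DSF+LPS over LPS 3 rose and 5 fell, where 33.7% and 31.6% did. The nuclear receptor Ppard had 195 ± 1.91 CPM in DSF and 18.5 ± 2.97 in control cells, a log2 fold change of 3.40 ± 0.11 (SE; adjusted p = 1.09e-11). Ppargc1b, a coactivator that promotes mitochondrial biogenesis, had 4.23 ± 0.656 CPM in DSF+LPS, 6.76 ± 0.873 in DSF, 7.02 ± 2.02 in LPS and 20.5 ± 0.336 in control cells (SD, n = 2 each). It was highest in control cells, with -1.60 ± 0.18 (SE; adjusted p = 4.04e-06) for DSF over control and -1.55 ± 0.18 (SE; adjusted p = 1.15e-05) for LPS over control. For DSF+LPS over LPS it had -0.73 ± 0.21 (SE; adjusted p = 0.00748), which did not pass without LPS replicate 1 (-0.41, adjusted p = 0.141). For DSF+LPS over DSF it had -0.68 ± 0.21 (SE; adjusted p = 0.0515), and passed without DSF+LPS replicate 1 (-0.86, adjusted p = 0.0227) or DSF replicate 2 (-0.79, adjusted p = 0.04995).

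The last list held 25 nuclear partners of the mitochondrially encoded subunits in the same complexes. Between DSF+LPS and DSF cells, where 12 of 13 mitochondrial mRNAs fell, 10 of the 25 rose and 0 fell, where 5.53% and 6.53% of all tested genes did. Their median log2 fold change was 0.22, and with library size alone 4 rose and 1 fell. Cox4i1, a complex IV subunit, had 719 ± 13.04 CPM in DSF+LPS and 557 ± 29.6 in DSF cells (SD, n = 2 each), a log2 fold change of 0.37 ± 0.07 (SE; adjusted p = 0.00599). The complex IV gene Cox5b had 0.55 ± 0.11 (SE; adjusted p = 0.00709) and Atp5e of the ATP synthase had 0.35 ± 0.07 (SE; adjusted p = 0.00788). Without DSF replicate 1, none of these 3 passed (0.33, adjusted p = 0.0759 for Cox4i1, 0.44, adjusted p = 0.110 for Cox5b and 0.33, adjusted p = 0.0961 for Atp5e), and 0 of the 25 rose. Over LPS cells, 10 rose and 7 fell, where 33.7% and 31.6% of all tested genes did, with Atp5e at 0.71 ± 0.07 (SE; adjusted p = 1.09e-06) and Cox4i1 at 0.62 ± 0.07 (SE; adjusted p = 4.09e-06). In DSF over control 4 rose and 7 fell, where 31% and 27.1% of all did, and in LPS over control 0 did in either direction in edgeR's test or in DESeq2, with 0 at an unadjusted p under 0.05.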

How the data were processed

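RNA was measured in 8 libraries of iBMDM cells, 4 groups of 2. Per the labels' protocols, TRIzol was used for extraction and a VAHTS mRNA-seq V3 kit for library preparation. The authors deposited 1 table of raw counts per Ensembl gene, with no normalization. The submitters' processing notes name the genome build GRCm39 and DESeq2; which aligner, counter and strand setting were used, and how multiply matching reads were handled, is not given in the sources used here. Totals ran between 17822041 and 21694922 counts per library, and intervals cover counting error only.

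Of 55414 IDs, 52081 matched a symbol in GENCODE M21 and 3333 did not. The members and lists were chosen with earlier results of these data known. Genes with enough counts (filterByExpr, minimum count 10, minimum total 15) numbered 16304. They were fitted together over all 8 libraries with edgeR 4.0.16 in R 4.3.3 (TMM scaling, quasi-likelihood test), with Benjamini-Hochberg adjustment over all 16304 and a threshold of 0.05. CPM values are TMM-scaled, apart from the sums of cell type markers, and fold changes compare the first-named group with the second. Nuclear copies were found by blastn at 90% identity or more over at least 100 bases. From each list of nuclear genes, the 3 genes past the threshold with the largest change and at least 5 CPM were eligible to be named, beside Tfam, Polrmt, Pnpt1, Lrpprc, Slirp and Ppargc1b, which are given whatever their values. The fit was also run on simulated counts in which far fewer genes changed than were called in most comparisons here. That run does not give the rate of false calls for these data. Alternatives were other scalings, DESeq2 1.42.0, no filter, fits of the compared libraries alone, a replicate block and leaving out each library, where the lone sample of a group is assumed to vary like the others. Adding the copies' counts, crossing the replicate numbers and scaling to the mitochondrial mRNA pool were chosen after seeing the data. No column was left unused.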

Additional observations from a re-analysis of the deposited data

Results flagged for a closer look

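Several genes differed in their response to LPS between cells with and without DSF, by the interaction in edgeR's quasi-likelihood test. Each value is the log2 change of DSF+LPS over DSF minus that of LPS over control. For the complex I mRNAs it was -0.72 for mt-Nd1, -0.77 for mt-Nd2, -1.11 for mt-Nd3, -0.46 for mt-Nd4l, -0.42 for mt-Nd4, -0.43 for mt-Nd5 and -1.42 for mt-Nd6. For the other mRNAs it was -0.32 for mt-Co1 and -0.55 for mt-Atp6. For the rRNAs it was -0.80 for mt-Rnr1 and -0.89 for mt-Rnr2.

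For the tRNAs it was -5.06 for mt-Tl1, a fitted value that rests on 1 count in the DSF+LPS libraries and is no bound, and -2.10 for mt-Tc. mt-Tl1 did not pass without DSF+LPS replicate 2 (adjusted p = 0.0591), DSF replicate 1 (0.195), LPS replicate 1 (0.113) or control replicate 2 (0.0787). mt-Tc did not pass without DSF+LPS replicate 2 (adjusted p = 0.0561), DSF replicate 1 (0.127), LPS replicate 1 (0.0772) or control replicate 1 (0.0870). Among the nuclear genes it was -0.80 ± 0.18 (SE; adjusted p = 0.00609) for Pnpt1 and 0.87 ± 0.28 (SE; adjusted p = 0.0422) for Ppargc1b, the second not passing without DSF+LPS replicate 1 (adjusted p = 0.105), DSF replicate 2 (adjusted p = 0.0964), LPS replicate 2 (adjusted p = 0.194), control replicate 1 (adjusted p = 0.122) or control replicate 2 (adjusted p = 0.0996).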

How the results depend on the processing

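With library size alone in place of TMM, the all-gene median log2 fold change moved by -0.10 in DSF over control, -0.14 in LPS over control, -0.11 in DSF+LPS over DSF and -0.21 in DSF+LPS over control, and upward calls made up 30.0%, 17.5% and 41.0% of all calls in the last 3, where TMM gave 52.5%, 45.8% and 52.7%. Under it 2 mitochondrial genes rose and 11 nuclear partners fell in DSF over control. In LPS over control 5 mitochondrial genes fell, mt-Co1 had -0.15, adjusted p = 0.0165 (0.00 under TMM), and 7 machinery genes rose and 35 fell. In DSF+LPS over DSF 6 machinery genes rose and 24 fell, with 4 partners that rose and 1 that fell. Machinery genes that rose numbered 15 in DSF+LPS over control and 15 in the interaction. DESeq2 called 3 partners lower in DSF+LPS over LPS, and gave no adjusted p for mt-Tl1 and mt-Tc in DSF+LPS over DSF.

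The log2 ratio of the mitochondrial share was -0.0307 for DSF over control, 0.0169 with nuclear counts less the 10 most abundant genes below the line and 0.0729 with TMM sizes. With TMM sizes it was -0.00431 for LPS over control (otherwise -0.16) and -0.39 for DSF+LPS over DSF (otherwise -0.50). For DSF+LPS over control it was -0.47 and -0.32 (otherwise -0.53).

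Leaving out each library in turn gave these ranges. In DSF+LPS over DSF, 0 to 11 machinery genes fell, 1 to 16 machinery genes rose, 0 to 10 nuclear partners rose and 10 to 14 mitochondrially encoded genes fell. In DSF+LPS over control, 15 to 21 machinery genes rose. In LPS over control, 7 to 8 machinery genes fell and 6 to 8 machinery genes rose. In the interaction, 2 to 18 machinery genes rose. In DSF over control, 1 to 2 tRNA and rRNA processing genes rose, 1 to 3 replication genes rose, 2 to 4 nuclear partners rose, 2 to 6 mitochondrially encoded genes fell and 2 to 5 mitochondrially encoded genes rose. In DSF+LPS over LPS, 3 to 5 replication genes rose and 2 to 7 nuclear partners fell.

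Replicate numbers showed no positive pairing of the samples: 0 of 6 correlations of deviations between groups were above 0.1 (range -0.12 to 0.05). The lowest, between DSF and DSF+LPS, exceeded 0.1 in size with a negative sign. With the replicate number as a block, 3 mitochondrial genes rose and 5 fell in DSF over control, 17 fell in DSF+LPS over DSF and 14 in the interaction, and the other counts of mitochondrial genes did not move. With the DSF+LPS numbers crossed, 14 fell in DSF+LPS over DSF. Of 3715 alternative values for single genes, 3465 kept their call or lack of one, 188 lost a call and 61 gained one. The 1 left, the mt-Co1 value in LPS over control above, changed sign and was called. The 3465 include 150 values that changed sign and were called under neither setting. The interaction was not fitted on the compared libraries alone, since it uses all 8. Depth limits the 17 tRNAs not tested.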

Other observations

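mt-Rnr2 and mt-Nd1 are neighbours on the heavy strand with mt-Tl1 between them, and mt-Rnr1 lies before mt-Rnr2. The ratio of mt-Rnr1 to mt-Nd1 counts was 0.390 and 0.359 in DSF+LPS, 0.399 and 0.398 in DSF, 0.105 and 0.118 in LPS and 0.112 and 0.114 in control libraries, and that of mt-Rnr2 to mt-Nd1 was 0.465 and 0.519 in DSF+LPS, 0.571 and 0.530 in DSF, 0.269 and 0.289 in LPS and 0.282 and 0.278 in control libraries. In both ratios all 4 libraries with DSF lay above all 4 without it. Along the coding part of the transcript, the ratio of mt-Atp6 to mt-Co1 counts was 0.0787 and 0.0696 in DSF+LPS, 0.0960 and 0.0878 in DSF, 0.122 and 0.121 in LPS and 0.132 and 0.125 in control libraries, and there all 4 libraries with DSF lay below all 4 without it. The ratio of mt-Nd4l to mt-Nd4, which lie on 1 mRNA, was 0.243 and 0.240 in DSF+LPS, 0.243 and 0.220 in DSF, 0.276 and 0.257 in LPS and 0.231 and 0.263 in control libraries. Both LPS libraries lay above all 4 with DSF, DSF+LPS overlapped DSF, and control overlapped every other group. mt-Nd4l and mt-Atp6 have nearly whole nuclear copies, so these levels depend on how shared reads were counted.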
